A study of Rattus norvegicus with 8 samples.

Results

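Cadherins and protocadherins are cell-surface proteins that hold cells together through repeated extracellular cadherin domains. Their genes were taken as every gene on the array whose name in the files starts with Pcdh, or with Cdh followed by a digit. The array carried 93 probes for 70 such genes, among 36174 gene names in all. Of these, 56 genes were measured, meaning that 4 or more of the 8 arrays flagged a probe of theirs as well above background; the brightest such probe stood for the gene. The whole series holds 22796 genes measured in this way. The remaining 14 genes did not pass that filter and have no tested value: Cdh1, Cdh3, Cdh16, Cdh23, Pcdh12, Pcdhb2, Pcdhga3, Pcdhga5, Pcdhga9, Pcdhga10, Pcdhga11, Pcdhgb5, Pcdhgb7 and Pcdhgb8.

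The RNA came from primary hippocampal neurons of Wistar rats, taken at postnatal day 0 to 1. One group of 4 samples received a lentivirus carrying an shRNA against Sirt6, the gene of a NAD-dependent deacetylase of chromatin, and the other 4 received a lentivirus carrying a scrambled control shRNA. Both groups were infected after 3 days in vitro at a multiplicity of infection of 6, kept for 7 more days in Neurobasal-A medium with B27 and Glutamax, and collected at 10 days in vitro. Each sample was hybridised to a one-colour (Cy3) Agilent array. No label states that the samples were separate cultures or animals, and the p-values below reflect only sample-to-sample spread, part of which may be technical.

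All 8 arrays lay on 1 slide, with the Sirt6 shRNA arrays in its second row and the scrambled shRNA arrays in its first, so slide row and shRNA cannot be told apart. Between 60.4% and 65.3% of the 45598 non-control probes were well above background, and no such spot was saturated. Values are given as scaled signal, the processed spot intensity after each array was brought to a common 75th percentile. Differences are log2 values, Sirt6 shRNA minus scrambled shRNA, with the standard error (SE) of limma's fit, and a gene is called where its p-value, adjusted over all 22796 genes by the Benjamini-Hochberg method, is under 0.05. Sirt6 itself had scaled signals of 479, 488, 462 and 450.03 on the Sirt6 shRNA arrays, against 1394, 1344, 1321 and 1364 on the scrambled shRNA arrays. The groups did not overlap, the signal left was 34.7% of that under scrambled shRNA, and the log2 difference was -1.53 (SE 0.040, limma adjusted p = 5.65e-06). RNA from fewer cells of a type and less RNA per cell cannot be told apart in these bulk samples.

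Classical cadherins bind like cadherins on the next cell in the presence of calcium, and their tails hold catenins that connect to actin. Protocadherins have no catenin-binding tail. Most non-clustered protocadherins belong to the delta family, which regulates cell sorting, axon growth and synapse number. The clustered protocadherins lie in 3 neighbouring arrays named alpha, beta and gamma. Each neuron uses a small set of them, and the resulting combination lets a neurite recognise branches of its own cell. An alpha or gamma transcript joins 1 variable exon to constant exons shared by its cluster, whereas each beta gene is a single coding exon of its own.

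Under Sirt6 shRNA, 16 of the 56 measured genes rose and 7 fell. Over all genes 30.3% were called, 15.5% higher and 14.8% lower. The share among these genes, 23 of 56 or 41.1%, was above that of the whole array, and this excess was not tested. Their median log2 difference was 0.11, beside 0.02 over all genes. The arrays of the groups did not overlap for 26 members; over all genes this held for 33.3%. The balance over all genes depended on scaling: 51.2% of calls were higher, against 35.2% with median centring and 64.0% with scaling on spike-in probes. With median centring 12 of the 56 genes rose and 9 fell, and with spike-in scaling 15 rose and 3 fell. Counts are also given by class. Of the 12 measured beta protocadherins 10 rose and none fell, and of the 19 measured cadherins 2 rose and 5 fell. Whether classes differ from each other was not tested.

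**Figure D1:**
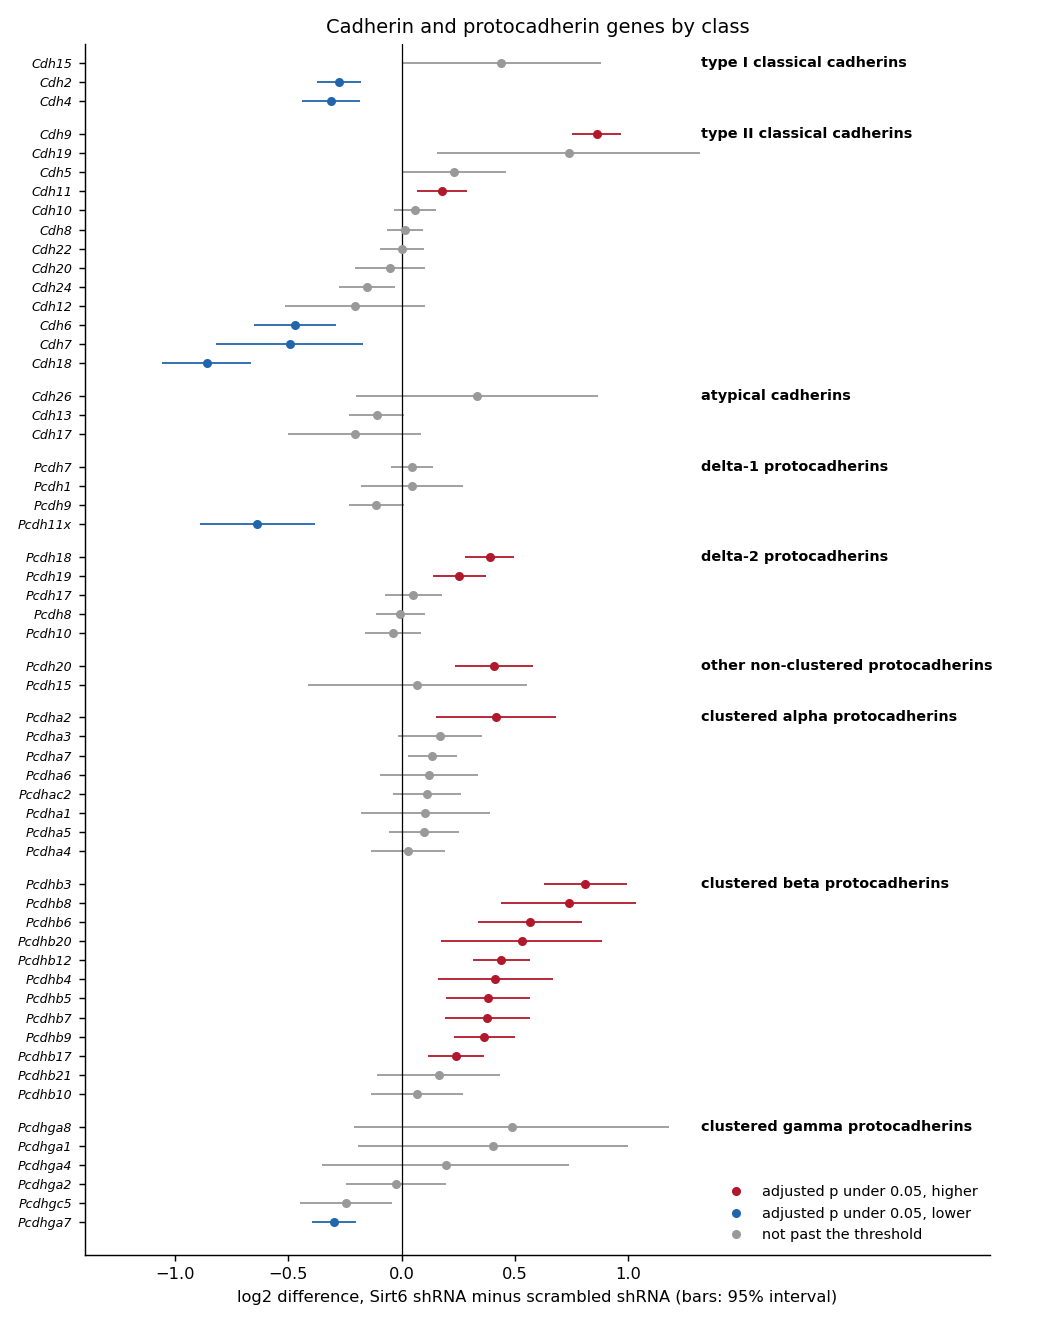
Log2 difference (Sirt6 shRNA minus scrambled shRNA, x axis) of each of the 56 measured genes with its 95% interval, grouped by class down the page. Red and blue points passed the adjusted p threshold as higher and lower; the 10 called beta genes lie between 0.24 and 0.81, and the widest departures elsewhere are Cdh9 at 0.86 and Cdh18 at -0.86.

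The beta protocadherins were the class with the most calls. Their median log2 difference was 0.40, and all 12 measured genes had a positive one. Called genes ranged from Pcdhb17 at 0.24 to Pcdhb3 at 0.81. With normexp background correction 1 of them, Pcdhb21, was negative at -0.04 and not called. No beta gene passed the test as lower, at limma's adjusted threshold, at an unadjusted p under 0.05, or under any alternative processing that was run. Averaged over the 12 genes, the log2 deviation from each gene's 8-array mean lay between 0.10 and 0.30 on the Sirt6 shRNA arrays, against -0.28 to -0.16 on the scrambled shRNA arrays. Beta genes are expressed in neurons from the same promoter-choice system as the alpha and gamma genes.

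Pcdhb3, on chromosome 18, had the largest rise among them. Its scaled signals were 147, 119, 146 and 138 on the Sirt6 shRNA arrays, against 78.1, 72.3, 84.7 and 77.5 on the scrambled shRNA arrays. The lowest Sirt6 shRNA array stood well clear of the highest scrambled shRNA array. The log2 difference was 0.81 (SE 0.080, n = 4 arrays each, limma adjusted p = 2.92e-04), a 1.75-fold higher level.

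Pcdhb8 had 29.1, 25.9, 31.9 and 33.3 on the Sirt6 shRNA arrays, against 22.3, 15.3, 18.8 and 16.2 on the scrambled shRNA arrays. Pcdhb6 had 36.2, 28.5, 26.5 and 31.7 on the Sirt6 shRNA arrays, against 19.9, 19.0, 21.8 and 21.8 on the scrambled shRNA arrays. Neither gene's groups overlapped, although both signals are low. The log2 differences were 0.74 for Pcdhb8 (SE 0.13, limma adjusted p = 0.00417) and 0.57 for Pcdhb6 (SE 0.10, limma adjusted p = 0.00422).

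Pcdhb20 had 130, 77.0, 86.6 and 85.3 on the Sirt6 shRNA arrays, against 69.2, 59.5, 64.0 and 64.5 on the scrambled shRNA arrays. Replicate 1 of Sirt6 shRNA was far above the others of its group, and the groups still did not overlap. Its log2 difference was 0.53 (SE 0.15, limma adjusted p = 0.0338). The call was lost when any of the 4 scrambled shRNA arrays, or Sirt6 shRNA replicate 3 or 4, was left out, with an adjusted p between 0.0519 and 0.0845. It was also lost with median centring (adjusted p = 0.0548) and without the filter on dim probes (adjusted p = 0.0607).

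Pcdhb12 had 85.1, 89.2, 91.4 and 97.6 on the Sirt6 shRNA arrays, against 71.2, 63.9, 65.9 and 66.7 on the scrambled shRNA arrays. This gave a log2 difference of 0.44 (SE 0.054, limma adjusted p = 8.26e-04). The gene's replicates lay close together in both groups.

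Pcdhb4 had 41.6, 38.7, 36.1 and 34.1 on the Sirt6 shRNA arrays, against 32.2, 27.1, 23.4 and 30.9 on the scrambled shRNA arrays. The lowest Sirt6 shRNA array, at 34.1, lay just above the highest scrambled shRNA array, at 32.2. The log2 difference was 0.41 (SE 0.11, limma adjusted p = 0.0245). The call was lost without scrambled shRNA replicate 2, Sirt6 shRNA replicate 1 or Sirt6 shRNA replicate 2, with an adjusted p between 0.0537 and 0.0635, and without the filter on dim probes (adjusted p = 0.0531).

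Pcdhb7 had the highest signal of the class. It showed 423, 399, 448 and 424 on the Sirt6 shRNA arrays, against 378, 324, 289 and 317 on the scrambled shRNA arrays. The groups did not overlap, and the log2 difference was 0.38 (SE 0.081, limma adjusted p = 0.0101). Pcdhb5 and Pcdhb9 also rose, with log2 differences of 0.38 (SE 0.080) and 0.36 (SE 0.058). Pcdhb17 was read by a pair of kept probes, at 0.24 (adjusted p = 0.0133 among all kept probes, limma) and 0.25 (adjusted p = 0.0988), so the size was alike while only the brighter one was called. The Pcdhb17 call was lost with median centring (adjusted p = 0.0715, limma) and with spike-in scaling (adjusted p = 0.0606).

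The other two beta genes had overlapping groups. Pcdhb21 averaged 25.5 ± 3.5 under Sirt6 shRNA and 22.8 ± 2.8 under scrambled shRNA (SD, n = 4 each), with a 95% interval of the log2 difference from -0.11 to 0.43. Pcdhb10 averaged 146 ± 7.8 under Sirt6 shRNA and 140.0 ± 18 under scrambled shRNA (SD, n = 4 each), with an interval from -0.14 to 0.27. The upper end of the Pcdhb10 interval lies below the estimate of every called beta gene except Pcdhb17.

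**Figure D2:**
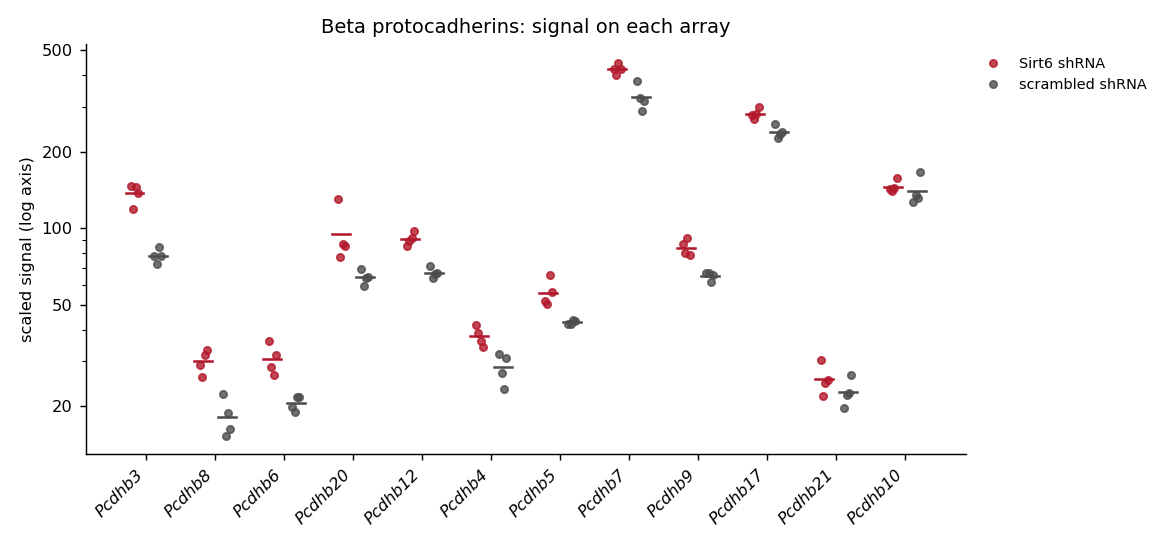
Scaled signal (log axis) of the 12 measured beta protocadherins on each array, genes in order of their log2 difference; red points are the 4 Sirt6 shRNA arrays, grey points the 4 scrambled shRNA arrays, and bars are group means. Levels are to be read within a gene, because probes differ in brightness. Red and grey points do not overlap for the 10 called genes and overlap for Pcdhb21 and Pcdhb10.

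Most beta signals were low, and the size of a low signal's change depends on how background is removed and on any constant added before log2. The 12 genes fell in the second to sixth of 10 equal bands of mean signal, in which 9.69% to 21.3% of all genes were called higher and the median log2 difference lay between 0.03 and 0.05. The normexp background correction used in place of the scanner's also added a constant of 50, which shrinks differences of low signals by construction. With it, all 10 called genes stayed past the threshold. Their log2 differences then lay between 0.14 and 0.53, and 9 of the 10 shrank by more than 1.5 times. The parts of the correction and of the constant were not separated. Pcdhb8 then had 0.20 and Pcdhb6 0.14, while Pcdhb7 kept 0.35. Of the genes that were not called, Pcdhb10 had 0.06, and Pcdhb21 changed sign, at -0.04 against 0.16 with the scanner's correction. Among all 23 called members, 13 shrank by more than 1.5 times.

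**Figure D3:**
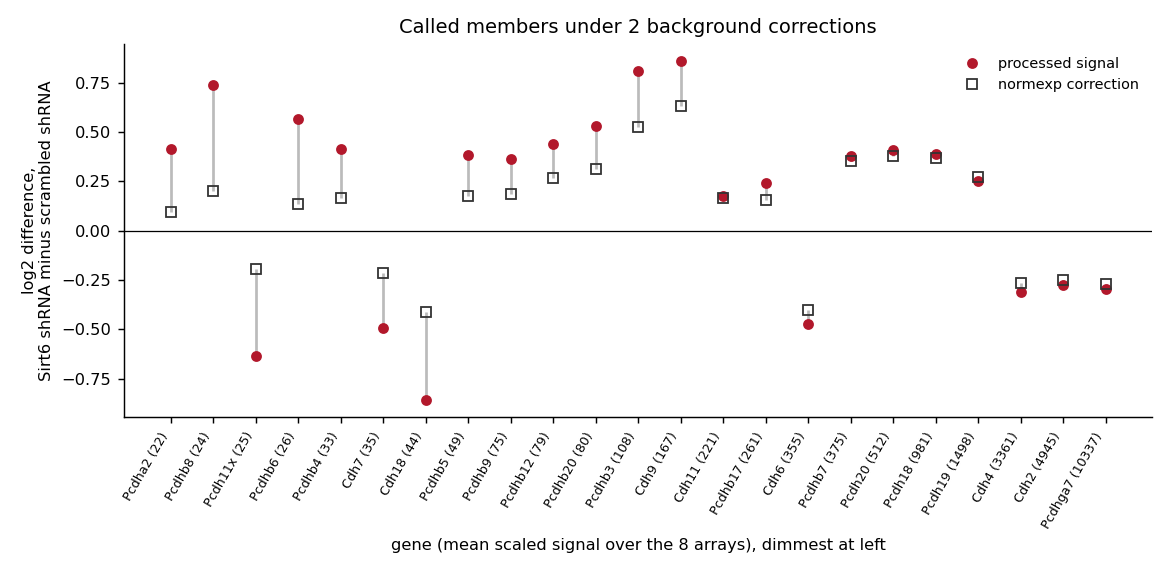
Log2 difference (y axis) of the 23 called members from the scanner's processed signal (red circles) and after normexp background correction (open squares). The normexp values include an added constant of 50. Members are ordered along the x axis from the lowest to the highest mean scaled signal. The gaps are wide for low signals, such as 0.74 against 0.20 for Pcdhb8, and small for high ones, such as -0.28 against -0.25 for Cdh2.

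Beta genes are related in sequence, and the letters of their probes show how far the array can tell them apart. The probes of Pcdhb3, Pcdhb8, Pcdhb4 and Pcdhb2 are given below, 5′ to 3′ and aligned without gaps on Pcdhb3, with capitals where all of them carry the same base at that place (21 positions). The probes of Pcdhb3 and Pcdhb4 end on the stop codon of the 1 frame free of an earlier stop, and Pcdhb2 is the beta gene that was not measured, well above background on 2 arrays, both with scrambled shRNA.
Pcdhb3 (rn4, chr18:30112856-30112915, + strand): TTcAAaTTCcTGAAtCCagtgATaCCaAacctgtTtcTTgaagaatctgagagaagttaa
Pcdhb8 (rn4, chr18:30172041-30172100, + strand): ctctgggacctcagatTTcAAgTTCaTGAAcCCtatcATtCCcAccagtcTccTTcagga
Pcdhb4 (rn4, chr18:30119477-30119536, + strand): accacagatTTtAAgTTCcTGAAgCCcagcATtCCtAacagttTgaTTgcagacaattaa
Pcdhb2 (rn4, chr18:30107057-30107116, + strand): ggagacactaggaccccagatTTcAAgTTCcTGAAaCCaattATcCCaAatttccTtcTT

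The probes of Pcdhb4 and Pcdhb8 matched at 39 of 53 overlapping bases (73.6%), and those of Pcdhb2 and Pcdhb8 at 40 of 55 (72.7%). No other pair of beta probes reached 70% over at least 40 bases. Pcdhb2 and Pcdhb3 lie next to each other, and Pcdhb2 had no measured level. How much signal each probe takes from other beta transcripts was not tested.

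Upstream of the beta genes, a 9-base string recurred. RefSeq's table of rat promoters (build GRCr8, 250 bases before to 50 after each gene start) matched 40 of the 56 measured genes by symbol, including 11 of the 12 measured beta genes. The string GGTGGCGCT, chosen because it recurs in these promoters, was searched on both strands. It was found in 15 of 19 promoters of genes named Pcdhb (78.9%), on the gene's own strand each time, against 129 of all 27457 promoters (0.47%). It was present in none of 14 gamma promoters, none of 11 promoters of non-clustered protocadherins and 1 of 14 promoters of genes named Cdh (7.14%), that of Cdh15, on the opposite strand. The table held 1 alpha promoter, without the string. Because the string was picked from the beta promoters, its rarity in other classes is not a test. Textbook accounts describe a conserved element in clustered protocadherin promoters, bound by the chromatin protein CTCF. The string holds the short CGCT core by which that element is known. CGCT alone occurs in 62.4% of all promoters on either strand. It was found in 16 of 19 beta and 11 of 14 gamma promoters. For non-clustered protocadherins it was in 9 of 11, and for genes named Cdh in 10 of 14.

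The windows below show the 9 bases in capitals with 20 bases on each side, 5′ to 3′, for the largest rise (Pcdhb3), other called genes and both genes that were not called (Pcdhb10 and Pcdhb21).
Pcdhb3 (GRCr8, chr18:29285594-29285642, + strand): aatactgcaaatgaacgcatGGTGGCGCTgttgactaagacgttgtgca
Pcdhb8 (GRCr8, chr18:29339248-29339296, + strand): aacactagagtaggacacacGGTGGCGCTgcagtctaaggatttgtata
Pcdhb6 (GRCr8, chr18:29320142-29320190, + strand): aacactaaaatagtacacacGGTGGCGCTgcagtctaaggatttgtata
Pcdhb20 (GRCr8, chr18:29485800-29485848, + strand): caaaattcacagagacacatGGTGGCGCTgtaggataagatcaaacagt
Pcdhb12 (GRCr8, chr18:29413638-29413686, + strand): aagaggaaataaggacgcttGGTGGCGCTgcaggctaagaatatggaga
Pcdhb7 (GRCr8, chr18:29328988-29329036, + strand): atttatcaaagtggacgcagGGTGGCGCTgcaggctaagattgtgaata
Pcdhb21 (GRCr8, chr18:29492139-29492187, + strand): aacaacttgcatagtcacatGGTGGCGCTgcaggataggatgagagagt
Pcdhb10 (GRCr8, chr18:29391768-29391816, + strand): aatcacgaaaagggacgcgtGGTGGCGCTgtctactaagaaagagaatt

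All 11 measured beta genes with a promoter in the table held the string, the 9 called and the other two alike, so its presence does not separate them. It began 61 bases before the annotated start of Pcdhb3, 72 before that of Pcdhb10, and 208 and 229 before those of Pcdhb8 and Pcdhb6. Genes of proteins known to act on the clustered locus were listed too. Dnmt1 did not pass the filter on low signal, and Smchd1 and Wapl were not found by name on the array. The 12 measured regulators include Ctcf, the cohesin subunits Rad21, Smc1a and Smc3, and the histone methyltransferase Setdb1. Of these 12, 0 were called by limma, beside 30.3% over all genes. At an unadjusted p under 0.05 there were 0, and 0 were called under any of the alternatives. Their log2 differences lay between -0.06 and 0.09, with Wiz, a zinc-finger partner of the G9a complex, at 0.09 (SE 0.057) and Ctcf at 0.08 (SE 0.044).

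The alpha protocadherins lie upstream of the beta genes. All 8 measured genes had a positive log2 difference, with a median of 0.12, but 1 was called. Of those not called, Pcdha3 changed sign with normexp correction and Pcdha4 with quantile normalisation, with median centring and without either group's replicate 3. Pcdha2 had 30.2, 25.5, 20.8 and 23.5 on the Sirt6 shRNA arrays, against 18.7, 19.9, 19.4 and 16.5 on the scrambled shRNA arrays. The groups came close without overlapping, and the log2 difference was 0.42 (SE 0.12, limma adjusted p = 0.0288). It was not called after normexp correction (0.10, adjusted p = 0.146), after quantile normalisation (adjusted p = 0.0531), after median centring (adjusted p = 0.0510), without the filter on dim probes (adjusted p = 0.0572), or without scrambled shRNA replicate 1, scrambled shRNA replicate 4 or Sirt6 shRNA replicate 2 (adjusted p from 0.0594 to 0.0707).

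The probe listed under Pcdhac2 had the highest signal of the alpha class. It showed 3645, 3354, 3975 and 3889 on the Sirt6 shRNA arrays, against 3593, 3422, 3519 and 3195 on the scrambled shRNA arrays. The groups overlapped, and the log2 difference was 0.11 (95% interval -0.04 to 0.26). This probe lies at rn4 chr18:29927152-29927211 and lists 4 RefSeq transcripts, among them the transcript that the Pcdha6 probe lists. Its signal can therefore not be assigned to Pcdhac2 alone. Pcdha1 was read by a pair of probes of identical sequence, which gave 0.10 and 0.07, a check of spot-to-spot error within the arrays.

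The probes of Pcdha5 and Pcdha7 are shown because they share most of their bases, with capitals where both carry the same base.
Pcdha5 (rn4, chr18:29693192-29693251, + strand): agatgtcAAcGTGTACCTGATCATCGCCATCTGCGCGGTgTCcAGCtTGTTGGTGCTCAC
Pcdha7 (rn4, chr18:29706119-29706178, + strand): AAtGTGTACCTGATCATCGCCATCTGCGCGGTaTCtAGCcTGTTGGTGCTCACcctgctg
They matched at 49 of 53 overlapping bases (92.5%), and their log2 differences were 0.10 for Pcdha5 and 0.14 for Pcdha7, neither called. How much signal each takes from the other's transcript was not tested.

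The gamma protocadherins showed no common direction. Of 6 measured genes, 1 fell and none rose at the adjusted threshold; at an unadjusted p under 0.05, 2 were lower and 0 higher. The call belongs to the probes listed under Pcdhga7, whose brightest had 9252, 9090.1, 9310 and 9424 on the Sirt6 shRNA arrays, against 11965, 11610, 10756 and 11290 on the scrambled shRNA arrays. These groups did not overlap, and the log2 difference was -0.30 (SE 0.042, limma adjusted p = 0.00153). A second kept probe gave -0.27. Scaling on the spike-in probes ended the call (-0.22, limma adjusted p = 0.123).

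Both kept Pcdhga7 probes list the transcripts of 4 gamma genes (Pcdhga5, Pcdhga7, Pcdhga9 and Pcdhga12) and lie 127 kb downstream of a probe that lists the Pcdhga7 transcript alone, for which none of the arrays gave a signal well above background. The lower signal can therefore not be assigned to Pcdhga7 alone. Pcdhgc5, the last isoform of the cluster, averaged 269 ± 29 under Sirt6 shRNA and 319 ± 24 under scrambled shRNA (SD, n = 4 each), with a log2 difference of -0.25 that was not called (SE 0.087, limma adjusted p = 0.0675). The probes of Pcdhga1, Pcdhga4 and Pcdhga8 were well above background on only some arrays, and their log2 differences of 0.40, 0.19 and 0.49 carried SEs of 0.24 to 0.30.

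Along the locus, probes that the files list under other names were read as well, after the values of the member genes were known. Within the beta cluster and up to 10000 bases past its last member probe, 8 kept probes under 7 names are described in the files as protocadherins. Of these, 4 were higher and none lower, with log2 differences from -0.12 to 0.54 and a median of 0.27. Over all genes 15.5% were higher and 14.8% lower, and the share over all kept probes was not counted. In the gamma cluster 1 of 4 such probes was called, RGD1560482 at 0.78 (SE 0.100, limma adjusted p = 0.00106 over the 28620 kept probes). Taf7, a general transcription factor gene between the beta and gamma clusters, was not called at 0.13 (SE 0.096). RGD1563159, a gene in the same interval that the files do not describe as a protocadherin, was higher by 0.44 (SE 0.11, limma adjusted p = 0.0227). Within the gamma cluster, a probe likewise not described as a protocadherin was higher by 0.45 (SE 0.12, limma adjusted p = 0.031). Another such probe, within the beta cluster, also had 0.45 but was not called, and its groups overlapped (SE 0.17, limma adjusted p = 0.0854).

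**Figure D4:**
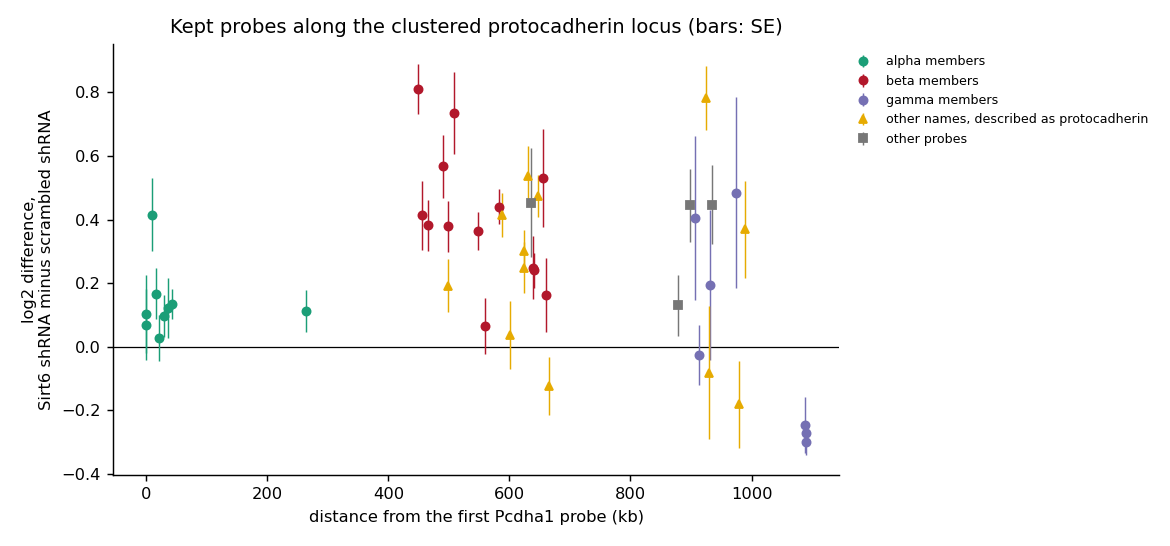
Log2 difference with its SE (y axis) of each kept probe along the clustered protocadherin locus, by distance in kb from the first Pcdha1 probe (x axis). Beta member probes (red) lie between 0.07 and 0.81; alpha probes (green) lie above 0 and mostly under 0.20; the probes at the far end of the gamma cluster (purple) lie between -0.25 and -0.30. Triangles are probes under other names that the files describe as protocadherins, and squares are other probes.

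The classical cadherins of type I include the main cadherins of synapses. Both that are typical of neural tissue fell. Cdh2, N-cadherin, had 4423, 4412, 4530.4 and 4523 on the Sirt6 shRNA arrays, against 5808, 5299, 5291 and 5276 on the scrambled shRNA arrays. The groups did not overlap, and the log2 difference was -0.28 (SE 0.042, limma adjusted p = 0.0023). A second Cdh2 probe gave -0.11 and was not called (adjusted p = 0.0724 among all kept probes, limma).

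Cdh4, R-cadherin, had 3009, 3022, 3228 and 2748 on the Sirt6 shRNA arrays, against 3803, 3706, 3824 and 3547 on the scrambled shRNA arrays. Every Sirt6 shRNA array lay below every scrambled shRNA array, and the log2 difference was -0.31 (SE 0.055, limma adjusted p = 0.00437). Scaling on the spike-in probes in place of the 75th percentile ended both calls, with -0.20 for Cdh2 (adjusted p = 0.14) and -0.24 for Cdh4 (adjusted p = 0.0921). Cdh15, M-cadherin of muscle, was near background and was not called.

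Type II cadherins mark particular neuron types and connections, and their calls went in both directions. Of 13 measured genes, 2 rose and 3 fell, a share of 38.5% beside 30.3% over all genes. Their median log2 difference was 0.00. Cdh9, which in mouse helps form the synapses of dentate granule cells onto CA3 pyramidal cells, had the largest rise of all members. It showed 217, 199, 227 and 217 on the Sirt6 shRNA arrays, against 116, 120, 120 and 118 on the scrambled shRNA arrays. The groups stood far apart, and the log2 difference was 0.86 (SE 0.046, limma adjusted p = 3.01e-05), a 1.82-fold higher level. Its probe lies at rn4 chr2:66931289-66931348.

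Cdh18, a cadherin of the central nervous system, had the largest fall. Its signals were 36.0, 32.3, 28.2 and 29.6 on the Sirt6 shRNA arrays, against 63.4, 55.4, 55.4 and 54.4 on the scrambled shRNA arrays. All 4 Sirt6 shRNA arrays were lower, and the log2 difference was -0.86 (SE 0.085, limma adjusted p = 3.01e-04), or -0.41 after normexp correction.

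Cdh6 had 302, 314, 271 and 299.9 on the Sirt6 shRNA arrays, against 440, 449, 362 and 398 on the scrambled shRNA arrays. Its log2 difference was -0.47 (SE 0.079, limma adjusted p = 0.00341). Cdh6 is a cadherin of specific neuronal pathways and of the kidney, and its groups did not overlap.

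Cdh7 had 30.7, 28.1, 35.1 and 21.8 on the Sirt6 shRNA arrays, against 42.2, 36.7, 44.2 and 38.0 on the scrambled shRNA arrays. The closest arrays of the groups were 35.1 and 36.7, and the log2 difference was -0.49 (SE 0.14, limma adjusted p = 0.0311). Leaving out scrambled shRNA replicate 1, 3 or 4, or Sirt6 shRNA replicate 1 or 2, ended the call (adjusted p from 0.0505 to 0.0735). Spike-in scaling (adjusted p = 0.0654) and dropping the filter on dim probes (adjusted p = 0.0586) did so too.

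Cdh11, a cadherin of mesenchyme and of hippocampal synapses, rose by a small amount, 0.18 (SE 0.047, limma adjusted p = 0.0242). Leaving out any of 5 arrays ended this call (Sirt6 shRNA replicates 1, 3 and 4, and scrambled shRNA replicates 1 and 3), with an adjusted p of up to 0.0665. Median centring, spike-in scaling and dropping the filter on dim probes ended it too. Cdh22 had the highest signal of the class, with 2514, 2458, 2391 and 2523 on the Sirt6 shRNA arrays, against 2510.0, 2589, 2370.1 and 2413 on the scrambled shRNA arrays. The groups overlapped throughout, and the 95% interval of the log2 difference was -0.09 to 0.10. A second kept Cdh22 probe, of much lower signal, gave -0.14 and was not called (SE 0.13, adjusted p = 0.475 among all kept probes, limma). Cdh8 and Cdh10, both cadherins of cortical and hippocampal circuits, were not called either, at 0.01 (SE 0.034) and 0.06 (SE 0.040).

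Of the atypical cadherins, which lack the classical tail, 3 were measured and 0 were called by limma; 0 had an unadjusted p under 0.05, and 1 was called under 1 alternative (Cdh17, with normexp correction). Cdh13, T-cadherin, which is tied to the membrane by a lipid anchor, had 1906, 1806, 1756 and 1892 on the Sirt6 shRNA arrays, against 2109, 2045, 1854 and 1946 on the scrambled shRNA arrays. The groups overlapped, and the 95% interval of the log2 difference was -0.23 to 0.01.

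**Figure D5:**
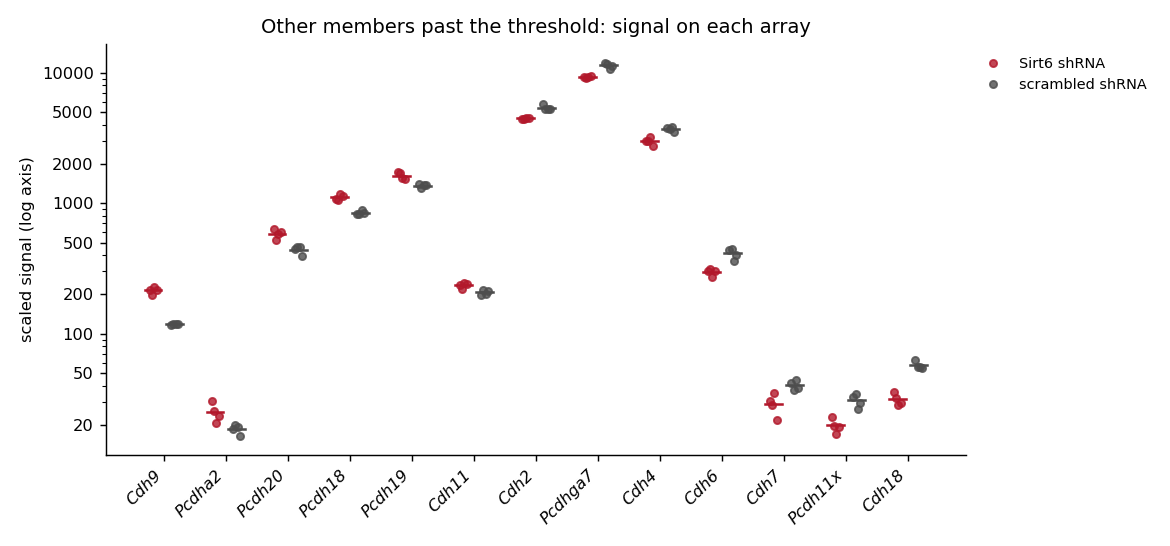
Scaled signal (log axis) of the 13 called members outside the beta class on each array, in order of their log2 difference; red points are the 4 Sirt6 shRNA arrays, grey points the 4 scrambled shRNA arrays, and bars are group means. Cdh9, at the left, has 199 to 227 against 116 to 120, and Cdh18, at the right, has 28.2 to 36.0 against 54.4 to 63.4.

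Among the non-clustered protocadherins 3 of 11 rose and 1 fell, a share called of 36.4% beside 30.3% over all genes. The delta-2 members, several of which recruit the actin-regulating WAVE complex, supplied 2 of the rises. Pcdh18 had 1084, 1050.4, 1169 and 1145 on the Sirt6 shRNA arrays, against 833, 831, 892 and 839.8 on the scrambled shRNA arrays. All 4 Sirt6 shRNA arrays were higher, and the log2 difference was 0.39 (SE 0.047, limma adjusted p = 7.98e-04).

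Pcdh19, the gene of an X-linked epilepsy in people, had 1728, 1699.9, 1559 and 1534 on the Sirt6 shRNA arrays, against 1394, 1313, 1376 and 1381 on the scrambled shRNA arrays. Its log2 difference was 0.25 (SE 0.051, limma adjusted p = 0.00747). Of its other probes, one gave 0.26 and was called, and the other gave 0.12 and was not. Pcdh17, the delta-2 member of highest signal, had 2767, 2504, 2416 and 2647 on the Sirt6 shRNA arrays, against 2606, 2386, 2409 and 2564 on the scrambled shRNA arrays. These overlapped, and the 95% interval of the log2 difference was -0.08 to 0.18.

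Pcdh11x fell. It had 23.0, 19.7, 17.1 and 19.4 on the Sirt6 shRNA arrays, against 32.7, 34.4, 26.4 and 29.6 on the scrambled shRNA arrays. Signals were low in both groups without overlap, and the log2 difference was -0.64 (SE 0.11, limma adjusted p = 0.00397), or -0.19 after normexp correction. A second probe for this delta-1 member gave -0.23 and was not called.

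Pcdh7, the delta-1 member of highest signal, had 1019, 924, 962 and 972 on the Sirt6 shRNA arrays, against 954, 926, 952 and 918 on the scrambled shRNA arrays. The groups overlapped, and its 4 kept probes gave log2 differences from -0.13 to 0.05, none called. For Pcdh9 the brightest probe gave -0.11 and was not called, while another, which lists a different RefSeq transcript alone, gave 0.32 and was called (SE 0.098, adjusted p = 0.0402 among all kept probes, limma). The remaining kept Pcdh9 probe lists both of these transcripts. It gave -0.08 and was not called (SE 0.12, adjusted p = 0.677 among all kept probes, limma). The direction at Pcdh9 thus depends on the probe.

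Pcdh20, a non-clustered protocadherin outside the delta groups, had 632, 518, 584 and 603 on the Sirt6 shRNA arrays, against 443, 459, 460.3 and 397 on the scrambled shRNA arrays. The groups did not overlap, and the log2 difference was 0.41 (SE 0.075, limma adjusted p = 0.00502). Pcdh15, of the hair-cell tip link, was not called.

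Lists of proteins that work with cadherins are given beside the whole array, where 15.5% of genes were higher and 14.8% lower. Of 14 measured catenins and cadherin-bound proteins, 4 rose and 3 fell (5 to 8 called over the alternatives), with a median log2 difference of 0.09. Whether these lists differ from other genes was not tested. Ctnna2, the neural alpha-catenin, averaged 7036 ± 209 under Sirt6 shRNA and 5160.2 ± 261 under scrambled shRNA (SD, n = 4 each), a log2 difference of 0.45 (SE 0.047). Ctnnb1, beta-catenin, averaged 603 ± 13 under Sirt6 shRNA and 698 ± 24 under scrambled shRNA (SD, n = 4 each), a difference of -0.21 (SE 0.039). Vcl, vinculin, and Jup, plakoglobin, rose by 0.52 and 0.36.

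Of 9 measured processing enzymes 2 rose and 3 fell, with 1 to 6 called over the alternatives. Furin, which cleaves the cadherin prodomain, was higher by 0.30 (SE 0.053), and the sheddases Adam10 and Adam17 had differences of -0.22 (SE 0.042) and -0.23 (SE 0.065). Ncstn, a subunit of gamma-secretase, fell by 0.16 on the log2 scale. Of 11 WAVE complex and kinase genes, none rose and 2 fell, Cyfip1 (-0.18, SE 0.039) and Ptk2 (-0.15, SE 0.045); at an unadjusted p under 0.05, 1 was higher and 4 were lower, and over the alternatives 0 to 2 were called.

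Of 16 other measured genes of the cadherin superfamily, 6 rose and 5 fell, beside 30.3% called over all genes. Over the alternatives 6 to 12 of the 16 were called. Fat4 and Dchs1, a receptor and its ligand in planar polarity, both rose, by 0.52 (SE 0.083) and 0.30 (SE 0.055). Celsr1, a large cadherin that also acts in planar polarity, differed by -0.46 (SE 0.086), whereas its relatives Celsr2 and Celsr3 rose by 0.16 and 0.25. Cdhr3 had the largest rise of this list at 0.77 (SE 0.12), on a signal near background, and Cdhr1, a photoreceptor cadherin, fell by 0.56.

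Markers of neurons and of other cells are given beside the whole array, where 30.3% of genes were called. No marker list was tested against other genes. All 10 neuron markers were measured, among them Rbfox3, Map2 and Tubb3, as the label of neurons requires; 4 rose and 1 fell, and their summed signal was 52074 to 58653 on the Sirt6 shRNA arrays, against 51890 to 53718 on the scrambled shRNA arrays. Of 13 astrocyte markers, all measured, 9 fell and 1 rose, with a median log2 difference of -0.38. Their summed signal was 100890 to 112690 on the Sirt6 shRNA arrays, against 142900 to 156910 on the scrambled shRNA arrays. S100b differed by -1.42 (SE 0.078) and Gfap by -0.71 (SE 0.069), while Gjb6 rose by 1.15 (SE 0.11).

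Of 7 measured mural and smooth muscle markers, 5 rose and none fell, also at an unadjusted p under 0.05. Their summed signal was 4286 to 5209 on the Sirt6 shRNA arrays, against 1536 to 1807 on the scrambled shRNA arrays, mostly from Tagln, a smooth muscle actin-binding protein (2.14, SE 0.11). Rgs5, Kcnj8 and Des of the same list did not pass the filter on low signal. Meningeal and fibroblast markers were 5 higher and 2 lower of 9. Their summed signal was 9245 to 9973 under Sirt6 shRNA, against 10015 to 11417 under scrambled shRNA. The 2 lower genes were Mgp, which averaged 958 under Sirt6 shRNA and 3159 under scrambled shRNA, and Fmod, at 87.0 and 335.

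Microglia markers were 0 higher and 3 lower of 10, beside 15.5% higher and 14.8% lower over all genes. Their median log2 difference was -0.48, and 0 of the 10 had a positive one. Over the alternatives 1 to 8 were called, none of them higher. Averaged over the list, the log2 deviation was 0.33 on Sirt6 shRNA replicate 2. It was -0.40, -0.52 and -0.33 on replicates 1, 3 and 4, and 0.03 to 0.44 on the scrambled shRNA arrays. At an unadjusted p under 0.05, 0 were higher and 5 lower. Their summed signal was 6589 to 13055 under Sirt6 shRNA, against 9259 to 13026 under scrambled shRNA. Oligodendrocyte lineage markers were 1 higher and 3 lower of 10, or 40% called beside 30.3% over all genes. Mbp differed by -1.31 (SE 0.11), Olig1 by -0.37 (SE 0.044) and Cnp by -0.21 (SE 0.062), while Cspg4 rose by 0.23 (SE 0.051). The summed signal of the list was 14008 to 14630.0 under Sirt6 shRNA, against 15719 to 17396 under scrambled shRNA.

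Progenitor markers were 2 higher (Nes and Top2a) and 1 lower (Fabp7) of 9, or 33.3% called. Their summed signal was 61479 to 68713 under Sirt6 shRNA, against 66925 to 74294 under scrambled shRNA. Most of that sum came from Fabp7, which averaged 44267 under Sirt6 shRNA and 50064 under scrambled shRNA. Of 10 endothelial markers 5 were measured and 1 rose, with a summed signal of 1423 to 1698 under Sirt6 shRNA, against 1427 to 1622 under scrambled shRNA; Cldn5, Flt1, Tie1, Emcn and Esam did not pass the filter. Cadherins such as Cdh2 and Cdh11 are also made by glia and mesenchymal cells. The part of these cell types in the values of the cadherins and protocadherins was not tested.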

How the data were processed

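Total RNA from 8 samples, 4 with Sirt6 shRNA and 4 with scrambled shRNA as named by the labels, was measured on 1 slide of one-colour Agilent arrays. Spots were quantified with Agilent Feature Extraction (version 11.5.1.1 in the submitters' processing notes). Per the file headers, the deposited processed intensity is background-subtracted and detrended, and raw mean and background intensity stand beside it. The authors' log2 table matched log2 of the processed signal minus each array's 75th percentile (SD of the difference at most 0.0029, median -3.70 to -3.59 per column), so scale and direction are known, and no gene centring was found.

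Levels were log2 of the processed signal minus each array's 75th percentile over non-control probes. Outlier-flagged spots were left out, spots of a probe averaged, and probes kept where well above background on at least 4 arrays; the brightest kept probe stood for each gene name. limma 3.58.1 (lmFit and eBayes, R 4.3.3) compared the groups over 22796 genes, two-sided, with Benjamini-Hochberg adjustment and a threshold of 0.05. The fit was tested on simulated data. The number of arrays limits the precision.

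Per-array values were printed for Sirt6, the 14 called members of largest absolute difference and, in each class, the highest signal and up to 3 largest calls; genes whose probes disagree were also named. From other lists up to 4 called genes of largest change were eligible, and further ones were named for their role. The member genes and lists were chosen with earlier results of these data known. Alternatives covered background correction, normalisation, filters, probe choice, gene names, variance model, replicate block and leaving out each array. Same-numbered arrays did not deviate together throughout (correlation 0.03 to 0.16), so numbers were not taken as pairs. Probe coordinates are in build rn4, per the file headers.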

Additional observations from a re-analysis of the deposited data

Results flagged for a closer look

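In 3 of the 54 groups of 4 arrays examined (26 named members and Sirt6, each in both groups), 1 array stood apart from the others of its group by Dixon's test; chance flags about 1 in 20 groups. For Cdh18, scrambled shRNA replicate 1 was high at 63.35, with the others at 54.4 to 55.4. For Cdh2, scrambled shRNA replicate 1 was high at 5808, with the others at 5276 to 5299. For Pcdh18, scrambled shRNA replicate 3 was high at 892.4, with the others at 831 to 839.8. All 3 genes kept their call and direction when that array was left out.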

How the results depend on the processing

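Every called cadherin or protocadherin gene kept its direction under all 21 alternatives, and 14 of the 23 kept their call under all of them, 7 of those being beta genes. The number of beta genes called higher was 8 to 10. Scaling on the spike-in probes called 3284 genes (2102 higher, 1182 lower), 3 members lower and 12 partner and superfamily genes; median centring gave 2011 genes higher. The median log2 difference of the members was 0.027 with normexp correction, 0.063 with median centring, 0.183 with spike-in scaling, 0.070 where probes had to be well above background on all arrays and 0.070 with 16 added before log2. The median of the beta genes was 0.182 with normexp correction, 0.472 with spike-in scaling, 0.314 with 16 added and 0.365 to 0.460 with 1 array left out, the highest without scrambled shRNA replicate 1. An added constant shrinks differences of low signals by construction, and the normexp setting also carried an added constant, of 50. How much of the normexp shift comes from that constant was not tested, nor was the cause of the other shifts. Of the members that were not called, 7 gained a call under at least 1 alternative. Pcdhgc5 did so under 6 alternatives, Cdh19 under 5, and Cdh24 and Pcdha7 under 4 each. Cdh17, Pcdha3 and Pcdhga8 did so under 1 each. Of the members that were not called, 14 changed sign under at least 1 alternative. Cdh22 was -0.044 with median centring, -0.003 in the authors' table, -0.067 as a mean of probes, -0.006 with array weights and -0.019 to 0.024 with 1 array left out. As means of their probes, Pcdh7 was -0.011 and Pcdh9 0.045. The others were Cdh8, Cdh20, Pcdh1, Pcdh8, Pcdh10, Pcdh15, Pcdha3, Pcdha4, Pcdhb21, Pcdhga2 and Pcdhga4.

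With the replicate block, 6451 genes were called against 6897 without it, 15 members higher and 8 lower, and 10 beta genes; Cdh11 lost its call and Pcdhgc5 gained one. Same-numbered arrays correlated at 0.0338 to 0.162 in their deviations from the group means, and Sirt6 shRNA replicates 1 and 4 correlated best with another number, so the samples were treated as unpaired. The slide could not be a block, as there is 1. Low signal over background limits the sizes at Pcdhb6, Pcdhb8, Pcdh11x and Pcdha2 most.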
